A study of Homo sapiens with 6 samples.

Results

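The alpha-arrestin genes TXNIP, ARRDC1, ARRDC2, ARRDC3 and ARRDC4 were followed together with MLXIP and MLX, which encode the paired glucose-sensing transcription factors that act on TXNIP. They are 7 genes of the 65746 in the deposited count table, found by their symbols. The set was selected on family membership with the fold changes between beta-sitosterol and DMSO in these same libraries already known, so the differences of these genes between the groups are given as a description and carry no p-value. The cells were SU-DHL-8, an established human line of diffuse large B-cell lymphoma with the genotype given as WT, grown in RPMI medium with fetal bovine serum and antibiotics. One group of 3 libraries (ST) received 15 µM beta-sitosterol, a plant sterol that resembles cholesterol, for 24 h, and the other group of 3 (DMSO) received the solvent alone for the same time. All libraries come from 1 cell line, and the labels number the replicates without saying whether cultures were grown separately, so spreads and p-values measure the variation between these libraries, which may be technical.

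Alpha-arrestins are adaptor proteins with an arrestin fold that bind membrane proteins and, through short proline-rich motifs in their tails, recruit ubiquitin ligases of the NEDD4 type. TXNIP, the best known, also binds thioredoxin and lowers glucose uptake by driving glucose transporters from the cell surface. When glucose 6-phosphate accumulates, MondoA (the product of MLXIP) enters the nucleus with its partner MLX and activates TXNIP and ARRDC4 through paired E-boxes called carbohydrate response elements, so that TXNIP messenger RNA is widely read as a gauge of intracellular glucose.

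The promoter windows of these genes are shown first because this paired element is the DNA through which MLXIP and MLX are known to act on TXNIP. RefSeq sequences (GRCh38.p14) from 250 bases before to 50 after a transcript start were matched for 7 of 7 genes, in 10 windows. In the first 2 lines capitals mark E-boxes or E-box-like arms, CCAAT boxes, the FOXO-type motif GTAAACA and the AP-1-type motif TGANTCA, each read on both strands. In the third line they mark the FOXO-type motif alone.
TXNIP promoter, chr1:145996530-145996829, minus strand: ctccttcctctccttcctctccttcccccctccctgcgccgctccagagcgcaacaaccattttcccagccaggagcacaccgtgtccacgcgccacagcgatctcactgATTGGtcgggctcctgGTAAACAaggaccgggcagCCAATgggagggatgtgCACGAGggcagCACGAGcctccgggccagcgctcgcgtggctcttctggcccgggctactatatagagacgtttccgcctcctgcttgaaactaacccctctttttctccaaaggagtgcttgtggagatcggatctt
ARRDC4 promoter, chr15:97960453-97960752, plus strand: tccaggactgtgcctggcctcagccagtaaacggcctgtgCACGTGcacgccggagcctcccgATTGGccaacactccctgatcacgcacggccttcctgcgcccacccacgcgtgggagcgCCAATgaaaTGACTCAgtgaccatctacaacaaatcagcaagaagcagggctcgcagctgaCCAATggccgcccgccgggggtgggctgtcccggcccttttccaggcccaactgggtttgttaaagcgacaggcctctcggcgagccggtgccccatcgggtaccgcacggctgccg
ARRDC3 promoter at its second listed start, chr5:91380048-91380347, minus strand: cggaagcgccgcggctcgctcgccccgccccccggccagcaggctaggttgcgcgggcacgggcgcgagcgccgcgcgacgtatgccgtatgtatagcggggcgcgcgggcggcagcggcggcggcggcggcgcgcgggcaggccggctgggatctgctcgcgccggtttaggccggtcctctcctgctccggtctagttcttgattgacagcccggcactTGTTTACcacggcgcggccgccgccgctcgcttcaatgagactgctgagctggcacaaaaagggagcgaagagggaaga

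The TXNIP window held 1 pair of E-box-like arms, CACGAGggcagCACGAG, at chr1:145996651-145996667. A pair was defined as 2 arms of 6 bases, each with at most 1 mismatch to CACGTG, with 5 bases between them. The same definition was met in 148 of 35116 windows in the RefSeq table, 0.42%, and in 1 of the 7 genes. With a spacer of 4 or 6 bases it was met in 0.60% and 0.58% of windows and in 0 of the 7 genes. ARRDC4, which is reported to be controlled like TXNIP, had a single exact E-box CACGTG 204 bases before its start, and MLX had 1 at 44 bases, against 7.26% of all windows. CCAAT boxes (CCAAT) lay in at least 1 window of each of the 7 genes, 2 in TXNIP and 3 in ARRDC4, and in 34.6% of all windows. The second TXNIP, second ARRDC3 and first ARRDC2 windows held no CCAAT box. The shares of all windows count windows and not genes, and TXNIP, ARRDC3 and ARRDC2 have 2 windows each. The FOXO-type motif GTAAACA occurred in TXNIP, 117 bases before the start, and in ARRDC3, 22 bases before its second listed start, and in 3.42% of all windows. TGANTCA occurred in ARRDC4 and ARRDC2, and in 7.71% of all windows. A match here means that the letters are present in these windows, and binding was not measured.

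**Figure D1:**
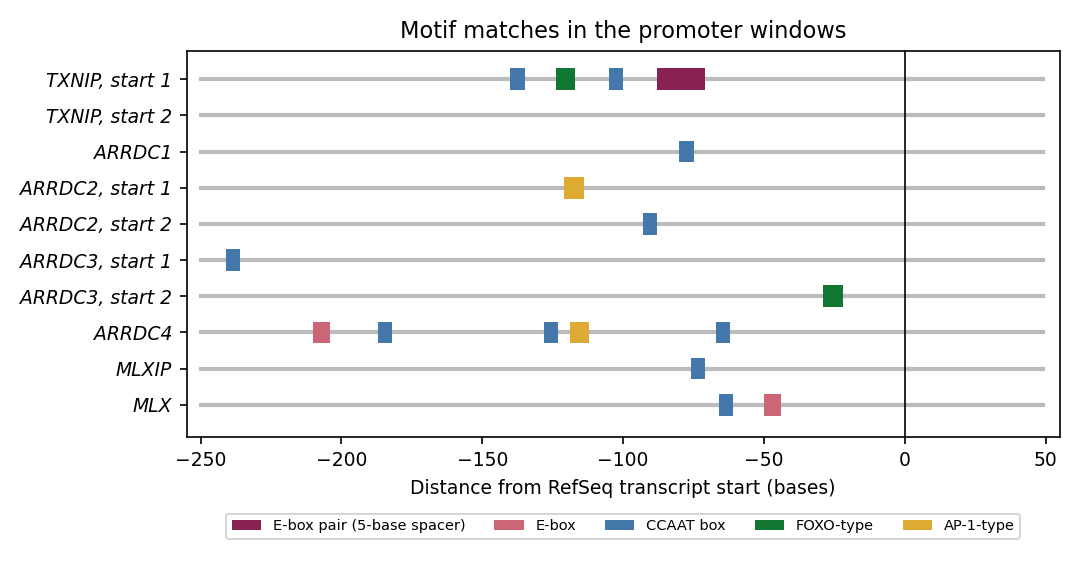
Position of each motif match (coloured boxes) in the 10 promoter windows of the 7 genes, in bases from the RefSeq transcript start on the horizontal axis, with 1 line per window. The E-box pair lies in the first TXNIP window alone among these, next to CCAAT and FOXO-type matches.

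Whole read counts per gene were deposited, 26453281 to 35565620 per library. Of the 65746 genes 11525 had enough reads to be tested with the edgeR quasi-likelihood test, and 4697 of them (40.8%) passed an adjusted p of 0.05. Among those calls 46.5% were higher after beta-sitosterol, and 21.2% in a limma fit of log2(TPM + 1) over the 10351 genes with a mean TPM of at least 1, which changed scale, test and filter together (median log2 fold change over all genes -0.26 there, -0.04 here). DMSO replicate 2 stood apart. Its log2 levels correlated at 0.982 and 0.972 with the other DMSO libraries (0.991 between those), and its listed TPM summed to 39.5% of a full total, against 64.6% and 69.2% in DMSO and 57.0% to 57.8% in ST libraries. A typical tested gene had a replicate SD (log2, median) of 0.27 among DMSO and 0.09 among ST libraries. B cell markers were present in all libraries (7 of 7 genes counted, summing to 1815 to 2523 CPM in DMSO and 2311 to 2478 in ST). Single markers moved in both directions: PAX5 fell from 660 to 208 CPM, while MS4A1 rose from 3.92 to 18.3, CD79A from 371 to 767 and CD37 from 49.1 to 77.0 CPM. T cell markers summed to 1.14 to 1.51 and 1.90 to 3.02 CPM, with CD3E, CD3G and CD2 listed at 0, and myeloid markers to 4.61 to 7.04 and 6.35 to 8.40 CPM. Epithelial and stromal markers summed to at most 0.18 CPM in DMSO and 1.67 CPM in ST, where COL1A1 was counted in every library (0.45 to 0.91 CPM) after 0 reads in each DMSO library. The part of other cell types in the results was not tested.

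After 24 h with beta-sitosterol TXNIP stood 2.54-fold higher, while MLXIP, the gene of its activator, stood 2.74-fold lower. ARRDC3 was 1.67-fold higher. ARRDC1, ARRDC2 and MLX overlapped between the groups, and ARRDC4 had 1 read in DMSO replicate 1 and 0 in each other library. Of the 6 members that could be tested 3 passed the threshold (50%), beside 40.8% of all genes, and 3 did not overlap between the groups, as held for 56.1% of all genes. Nothing is read from these counts, since the members were named with this comparison known. The median log2 fold change of the 6 tested members was 0.06, beside -0.04 over all tested genes. In such bulk RNA, fewer cells that express a gene and less RNA per cell cannot be told apart.

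**Figure D2:**
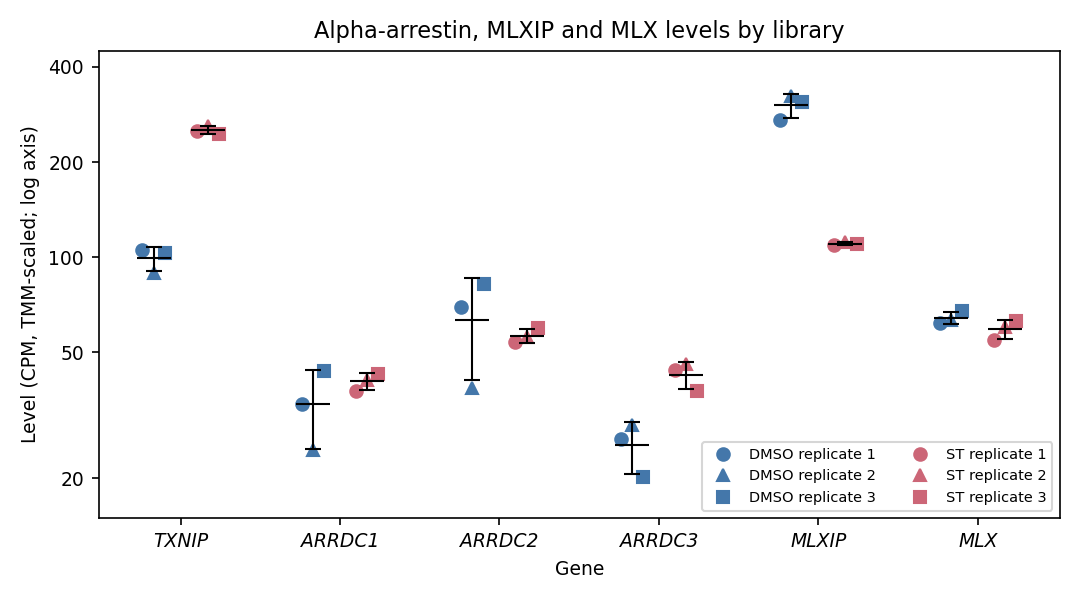
Level of each tested gene in CPM (log axis) in every library, DMSO in blue and ST in red, with the marker shape giving the replicate and bars the mean ± SD of 3 libraries. TXNIP and ARRDC3 lie higher and MLXIP lower in all ST libraries, while the other genes overlap and DMSO replicate 2 is lowest for ARRDC1 and ARRDC2.

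TXNIP (ENSG00000117289 in the table, chr1:145992435-145996579, minus strand; the names table lists the symbol under ENSG00000265972) stood at 105.4, 89.5 and 103.0 CPM in DMSO replicates 1 to 3 and at 250.7, 260.6 and 245.4 CPM in ST replicates 1 to 3. The lowest treated library thus lay far above the highest control. Means were 99.3 ± 8.6 and 252 ± 7.7 CPM (SD, n = 3 libraries each), a log2 fold change of 1.34 ± 0.12 (SE). That difference ranked 650 from the top of the 11525 tested genes. CPM are read counts relative to the reads of all tested genes, after TMM scaling for library composition.

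MLXIP (ENSG00000175727, chr12:122078756-122147344, plus strand) moved the other way. Its level was 272.7, 324.8 and 310.5 CPM in the DMSO libraries and 109.3, 111.6 and 110.3 CPM in the ST libraries, with no overlap and a treated spread of 1.02% of the mean. The means were 303 ± 26.9 and 110 ± 1.1 CPM (SD, n = 3 each), a log2 fold change of -1.45 ± 0.11 (SE), and it ranked 229 from the lowest of the tested genes. MLX (ENSG00000108788, chr17:42567100-42573203, plus strand), which dimerises with MondoA, stood at 62.0, 63.2 and 67.5 CPM in DMSO and 54.9, 60.0 and 62.7 CPM in ST. These ranges overlap, and its log2 fold change was -0.12 ± 0.11 (SE). MLX shares 894 bases of its locus with PSMC3IP on the annotation, and since the use of strand in counting is not given, reads in that stretch cannot be assigned with certainty.

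Among the other alpha-arrestins ARRDC3 (ENSG00000113369, chr5:91368631-91383317, minus strand), which acts on beta-adrenergic receptors and other surface proteins, resembled TXNIP in direction. It was counted at 26.6, 29.5 and 20.1 CPM in DMSO and at 44, 45.8 and 37.7 CPM in ST, so that every treated library exceeded every control. The log2 fold change was 0.74 ± 0.17 (SE). Its antisense neighbour ARRDC3-AS1 overlaps it by 2971 bases and had 143 reads over all libraries, against 2546 and 3544 for ARRDC3 in the DMSO and ST groups. On log2(TPM + 1), fitted without scaling between libraries (median of all genes -0.26), the ARRDC3 difference was 0.47 and no longer past the threshold. With length and GC trends removed it was 0.50 and past the threshold.

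ARRDC1 (ENSG00000197070, chr9:137605686-137615360, plus strand), known for recruiting the ESCRT machinery to bud vesicles from the plasma membrane, stood at 34.4, 24.6 and 43.8 CPM in DMSO and 37.9, 40.9 and 42.8 CPM in ST. ARRDC2 (ENSG00000105643, chr19:18001124-18014102, plus strand), a less studied member, stood at 69.5, 38.5 and 82.6 CPM in DMSO and 53.8, 56.0 and 59.7 CPM in ST. Both genes were lowest in DMSO replicate 2, which held 0.63 times (ARRDC1) and 0.51 times (ARRDC2) the mean of the other DMSO libraries. The same ratio was 1.26 for ARRDC3, 0.86 for TXNIP, 1.11 for MLXIP, 0.98 for MLX and 0.997 as the median of all tested genes. The longest transcripts of ARRDC1 and ARRDC2 have 62.8% and 60.2% G and C. Those of MLXIP, MLX, TXNIP and ARRDC3 have 57.9%, 51.8%, 43.9% and 37.6%. The part of base composition in that library's values was not tested.

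With all libraries the log2 fold change was 0.24 ± 0.20 (SE) for ARRDC1 and -0.17 ± 0.25 for ARRDC2. Without DMSO replicate 2 ARRDC2 was at -0.43 and passed the threshold, where 56.6% of tested genes did, and ARRDC1 was at 0.05. Without DMSO replicate 3 ARRDC1 was at 0.50 and passed, and ARRDC2 turned to 0.11. The direction of ARRDC2 thus changed with the control library left out. For the 3 genes past the threshold with all libraries the values without DMSO replicate 2 were 1.27 (TXNIP), 0.86 (ARRDC3) and -1.41 (MLXIP).

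ARRDC4 (ENSG00000140450, chr15:97960703-97973833, plus strand) had 1 read in DMSO replicate 1 and 0 in each other library. A count of 0 allows up to 3 reads, or 0.08 to 0.11 CPM at the depth of these libraries, so a level under that could not be seen in either group. It was not tested, and the second best known target of MondoA could therefore not be set beside TXNIP. The fifth named arrestin-domain gene, ARRDC5, was tested but is low, at 0.48 ± 0.22 and 0.49 ± 0.18 CPM (SD, n = 3 each), and its groups overlapped.

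**Figure D3:**
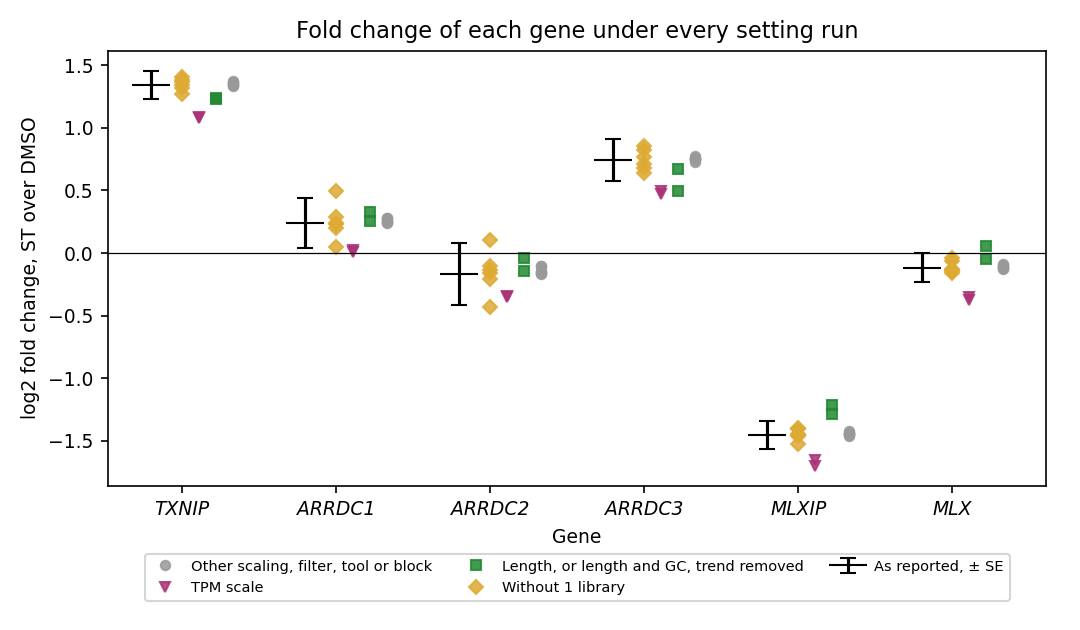
log2 fold change of each tested gene (vertical axis, ST over DMSO) as reported with its SE (black) and under each other setting (coloured points). TXNIP, ARRDC3 and MLXIP keep their side of 0 in all of them, ARRDC2 crosses it without DMSO replicate 3 and MLX when length and GC trends are removed.

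Gene length differs within the family, so the deposited TPM, which divide by length, were used to compare the genes with each other inside a library, where the TPM total cancels. In DMSO replicates 1 to 3 TXNIP made up 38.8%, 35.6% and 35.9% of the summed TPM of the 7 genes, and in ST replicates 65.8%, 65.6% and 64.8%. MLXIP made up 25.7%, 33.0% and 27.7% in DMSO and 7.35%, 7.19% and 7.45% in ST. TXNIP was thus the most abundant transcript of the set per length in both groups, and MLXIP went from the next most abundant to the level of ARRDC2. The ratio of TXNIP to MLXIP TPM, which needs no scaling between libraries, was 1.51, 1.08 and 1.30 in DMSO and 8.96, 9.13 and 8.70 in ST. Its means were 1.30 ± 0.22 and 8.93 ± 0.22 (SD, n = 3 each), with no overlap. The ratio of MLXIP to its partner MLX went from 3.25 ± 0.26 to 1.29 ± 0.08. Among the alpha-arrestins alone TXNIP accounted for 59.1% ± 2.6 of TPM in DMSO and for 75.2% ± 0.22 in ST (SD, n = 3 each).

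**Figure D4:**
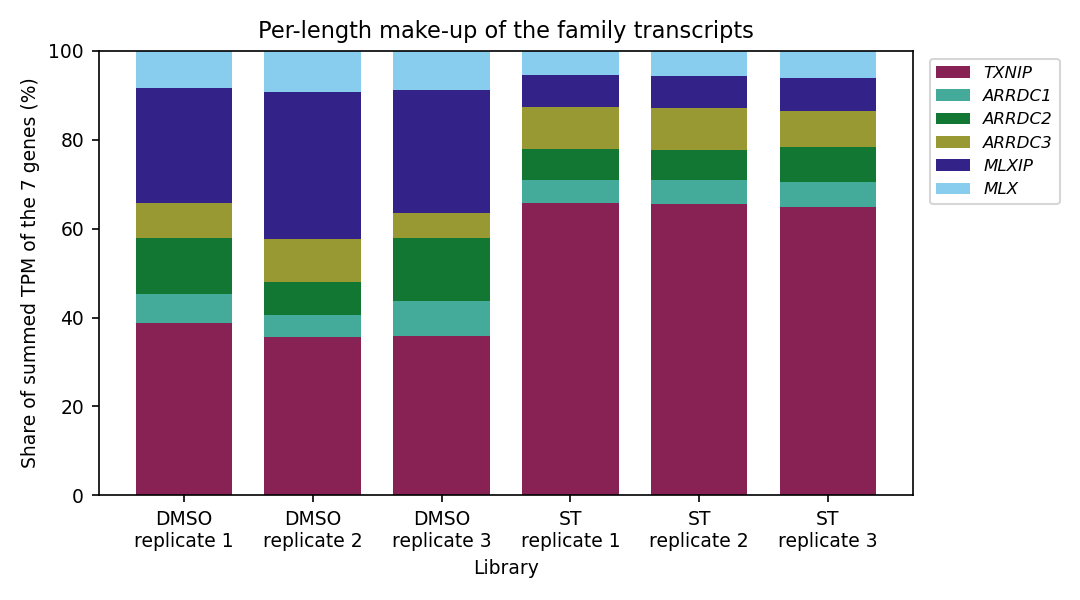
Share of each gene in the summed TPM of the 7 genes (stacked bars, vertical axis in percent) in each library. TXNIP fills 35.6% to 38.8% of the bar in DMSO and 64.8% to 65.8% in ST, and MLXIP shrinks from at least 25.7% to at most 7.45%; ARRDC4 is too small to draw.

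With the listed TPM of each library brought to the same total, DMSO levels per length ran from TXNIP (132 ± 8.5 TPM) through MLXIP (103 ± 11.9), ARRDC2 (40.6 ± 12.7), MLX (31.6 ± 1.0) and ARRDC3 (27.9 ± 6.7) to ARRDC1 (23.1 ± 5.2; SD, n = 3 each). The upper 2 were separate from each other and from the rest in every library, while ARRDC2, MLX, ARRDC3 and ARRDC1 overlapped as neighbours. In ST the order was TXNIP (274 ± 11.3), ARRDC3 (37.9 ± 4.3), MLXIP (30.7 ± 0.52), ARRDC2 (29.9 ± 1.2), MLX (23.8 ± 1.3) and ARRDC1 (22.6 ± 1.1). There MLXIP and ARRDC2 overlapped, as did MLX and ARRDC1. These levels rank the genes within a group and lack TMM scaling, so they are not read between the groups. MLX, for example, ran from 30.8 to 32.8 in DMSO and from 22.3 to 24.8 in ST here, while its CPM overlapped.

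The genes most like each member were sought among the 8743 genes averaging 5 CPM or more, by the root mean square difference of log2 CPM over the 6 libraries after centring each gene on its own mean. For TXNIP these were TSPAN31 (0.03 log2 units), RAB37 (0.05), TMEM59 (0.05), CMC1 (0.06) and the immunoglobulin light chain variable segment IGKV1D-39 (0.06). TSPAN31 went from 13.4 ± 0.82 to 34.8 ± 1.4 CPM, close to the 2.54-fold step of TXNIP. For MLXIP they were WWC3 and SNX20, with log2 fold changes of -1.40 and -1.42, and for ARRDC3 CSGALNACT2 and GTF2A2 (0.80 and 0.84). ARRDC1 lay nearest to COPRS and SMYD5, ARRDC2 to CHST14 and TPCN2, and MLX to EME1 and RNF10. With 6 libraries in 2 groups, this measure takes in the size of the group difference and the value in DMSO replicate 2. IGKV1D-39 has a near-identical copy, so its count is uncertain.

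The genes around the family were read from 8 lists of 88 genes in all, of which 74 could be tested. These lists too were chosen with earlier results of these data known, so their counts and adjusted p-values are a description. Of these 16 were higher and 16 lower after beta-sitosterol, 43.2% called beside 40.8% of all tested genes (19.0% higher and 21.8% lower), with a median log2 fold change of 0.02 beside -0.04. The lists as a whole were thus called about as often as genes in general, and what follows describes them one by one.

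**Figure D5:**
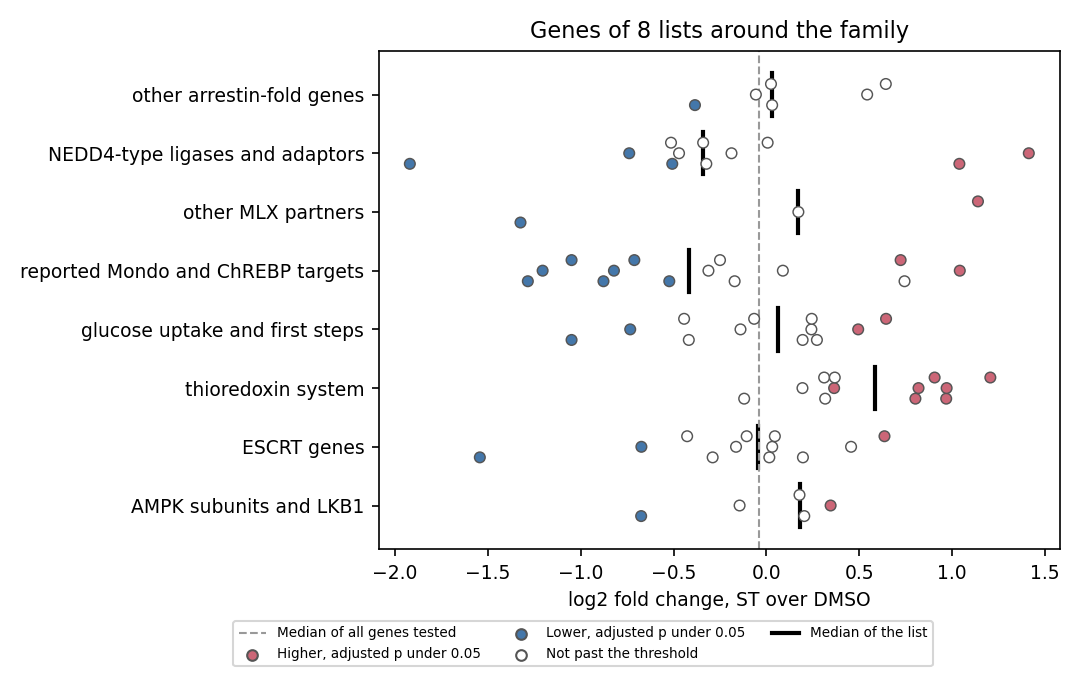
log2 fold change (horizontal axis, ST over DMSO) of each tested gene in the 8 lists, filled where the edgeR adjusted p is under 0.05, with a black bar at each list's median and a dashed line at the median of all tested genes. The thioredoxin system lies to the right (median 0.59) and the reported Mondo and ChREBP targets to the left (median -0.42).

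Genes reported as targets of MondoA or of its liver relative ChREBP, TXNIP and ARRDC4 aside, fell more often than they rose. Of 14 tested 7 fell and 2 rose, with a median log2 fold change of -0.42. Over all tested genes 21.8% were lower and 19.0% higher. The part of MondoA, ChREBP or any other regulator in these changes was not tested. HK2, the hexokinase that traps glucose in the cell, fell from 204 ± 34.9 to 98.4 ± 1.9 CPM (edgeR adjusted p = 9.39e-04). ACACA and FASN, enzymes of fatty acid synthesis, had log2 fold changes of -1.20 ± 0.10 and -1.28 ± 0.17. The zinc finger gene KLF10 rose from 17 ± 7.0 to 35.0 ± 0.49 CPM (edgeR adjusted p = 0.012), and RGS16, a regulator of G protein signalling, from 11.7 ± 2.6 to 19.3 ± 1.6 CPM (0.014). KLF10 lost its call without DMSO replicate 1 (0.057) and RGS16 without ST replicate 1 or 3 (0.059 and 0.061), which left 1 of the list higher in each case. On log2(TPM + 1) and on log2(TPM + 0.1) 4 genes of the list were lower and 1 higher.

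MLX has other partners that compete with MondoA, and 3 of the 4 listed were tested. MXD1, a repressor of E-box genes, rose from 3.05 ± 0.55 to 6.71 ± 0.60 CPM (edgeR adjusted p = 0.0023). MNT, another repressor of the same network, fell from 43.4 ± 6.0 to 17.3 ± 0.61 CPM (3.47e-04). MXD4 stood at 26.8 ± 8.1 and 30.2 ± 1.6 CPM and was not past the threshold (0.54), but without DMSO replicate 3 the list had 2 higher genes instead of 1. The ChREBP gene MLXIPL had 3 reads over all libraries. On log2(TPM + 1) and log2(TPM + 0.1) MXD1 was not called (limma adjusted p = 0.052 and 0.061).

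In glucose uptake and its first steps 2 of 12 tested genes rose and 2 fell, with a median of 0.06. The transporter gene SLC2A1, whose protein TXNIP removes from the membrane, dropped to 86.9 ± 1.6 CPM from 144 ± 43.9 (edgeR adjusted p = 0.023), and HK2 dropped as given above. SLC2A1 stood at 148, 98.7 and 186 CPM in the DMSO libraries and between 85.2 and 88.5 CPM in ST, so the groups were apart but the controls wide. The neuronal-type transporter gene SLC2A3 rose from 3.78 ± 0.35 to 5.92 ± 0.78 CPM (0.021). SLC2A1 lost its call without DMSO replicate 1 or 3 or any ST replicate (0.056 to 0.079), leaving 1 gene lower. Without DMSO replicate 2, where 56.6% of all tested genes were called instead of 40.8%, 5 genes of the list were lower. SLC2A3 lost its call without ST replicate 2 or 3 (0.11 and 0.068), leaving 1 higher. On both TPM scales 0 genes of the list were higher and 1 was lower, with SLC2A1 and SLC2A3 not called (limma adjusted p = 0.125 and 0.41 on log2(TPM + 1)).

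The thioredoxin system, whose central protein TXNIP binds, was higher in 7 of 12 tested genes and lower in 0, with a median log2 fold change of 0.59. Thioredoxin itself, TXN, rose from 128 ± 2.1 to 241 ± 13.9 CPM (edgeR adjusted p = 4.86e-04), a 1.87-fold change beside the 2.54-fold one of TXNIP. With the length trend removed TXN was at a log2 fold change of 0.59 instead of 0.91, beside 1.24 for TXNIP. With length and GC trends removed the values were 0.56 and 1.23. The peroxiredoxin genes PRDX6 and PRDX2, which encode peroxide-reducing enzymes, rose to 345 ± 10.6 and 182 ± 5.1 CPM from 176 ± 39.4 and 103 ± 18.2 CPM (0.0027 and 0.0028). With 1 library left out the count of higher genes was 5 to 8. On both TPM scales 0 of the list were called, and TXN had a log2 fold change of 0.65 on log2(TPM + 1) (limma adjusted p = 0.086).

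Alpha-arrestins act by bringing ligases of the NEDD4 type to their cargo, and of 11 such ligases and adaptors 3 fell and 2 rose (median -0.34). The adaptor genes NDFIP1 and NDFIP2, which encode membrane proteins that activate the same ligases, rose from 8.70 ± 0.71 to 23.2 ± 1.7 CPM (edgeR adjusted p = 2.38e-04) and from 31.4 ± 2.6 to 64.6 ± 3.6 CPM (4.77e-04). The ligase genes that fell were WWP2, from 84.5 ± 5.3 to 50.6 ± 2.7 CPM (0.0016), HECW1, from 4.2 ± 1.12 to 1.11 ± 0.25 CPM (0.0014), and SMURF1, from 42.5 ± 1.4 to 29.9 ± 3.5 CPM (0.014). SMURF1 lost its call without ST replicate 2 or 3 (0.089 and 0.067), and NDFIP2 on log2(TPM + 0.1) (limma adjusted p = 0.0504). ITCH, the ligase that marks TXNIP for degradation, was looked up after its values were seen and stood at 106 ± 20.1 and 106 ± 5.0 CPM.

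Other arrestin-fold genes held 1 call among 6 tested, VPS26B, a retromer subunit gene, which fell from 45.4 ± 4.6 to 34.8 ± 2.6 CPM (edgeR adjusted p = 0.043). That call was lost without DMSO replicate 1 or 3 or any ST replicate (adjusted p from 0.087 to 0.175), with DESeq2 (0.0565) or its RLE size factors (0.0632), with no filter on low counts (0.0802), with the replicate number as a block (0.051) and on both TPM scales. The list held 1 higher gene, instead of 0, in every alternative except library totals alone, both TPM scales and the fits without DMSO replicate 1 or any 1 ST replicate. Its close relative VPS26A, named after its values were seen, went from 24.3 ± 6.0 to 35.4 ± 2.2 CPM (0.0503). The beta-arrestin gene ARRB2, named in the same way, stood at 135 ± 14.3 and 130 ± 4.9 CPM with overlapping groups.

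Of 12 tested ESCRT genes, the budding machinery used by ARRDC1, 2 fell and 1 rose. VPS37B, an ESCRT-I subunit gene, was at 21.2 ± 3.0 CPM in DMSO and fell to 7.27 ± 0.29 (edgeR adjusted p = 2.53e-04), and VPS4A, the gene of the ATPase that disassembles ESCRT, from 76.0 ± 8.4 to 47.6 ± 1.9 CPM (0.0035). MVB12A rose from 26.7 ± 6.9 to 41.5 ± 2.3 CPM (0.028), a call lost without DMSO replicate 1 or any ST replicate (0.067 to 0.096), and without DMSO replicate 3 there were 2 higher genes. On log2(TPM + 1) and log2(TPM + 0.1) 0 were higher, and VPS4A lost its call (limma adjusted p = 0.051 and 0.053). TSG101, the ESCRT subunit that ARRDC1 binds, was added after its values were seen and stood at 50.1 ± 9.6 and 51.7 ± 2.1 CPM.

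The energy-sensing kinase AMPK and its activator LKB1, which act on TXNIP protein, gave 1 higher and 1 lower gene of 5 tested. PRKAB1, a regulatory subunit gene, rose from 85.3 ± 4.3 to 108 ± 3.8 CPM (edgeR adjusted p = 0.034), and STK11, the LKB1 gene, fell from 194 ± 65.8 to 122 ± 5.1 CPM (0.046), though its groups overlapped. Both calls were lost without DMSO replicate 1 or any ST replicate and on both TPM scales. PRKAB1 also lost its call with the replicate number as a block (0.0627) and with no filter on low counts (0.0832). STK11 also lost it without DMSO replicate 3, with RLE size factors (0.0557), a filter of 1 CPM in 3 libraries (0.0515), limma-voom (0.0719) or the length trend removed (0.0679). Without DMSO replicate 2, where 56.6% of all tested genes were called instead of 40.8%, 3 genes of the list were higher.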

How the data were processed

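RNA was sequenced from 6 libraries, 3 per group. Per the labels' protocols, TRIzol was used for total RNA and a standard Illumina preparation for libraries. The authors deposited read counts per gene as whole numbers, and the deposited TPM are those counts scaled for length and library: in 100% of the 8668 genes with 100 or more counts in every library, the ratio of count to TPM was the same in each library within 1%, after 1 factor per library. Tools in the submitters' processing notes are STAR 2.7.10, fastp 0.23.2, StringTie 2.2.1 and featureCounts 2.0.1, with GRCh38. Annotation and strand setting: not given in the sources used here.

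Of 65807 rows, 61 repeat a symbol and were dropped. Counts were tested in R 4.3.3 with edgeR 4.0.16 (quasi-likelihood F test, TMM, filterByExpr, treatment as the only term, Benjamini-Hochberg over 11525 genes, threshold 0.05), and the scripts were tested on simulated data. The SE is the size of the log2 fold change divided by the root of F. Members and lists were chosen with earlier results of these data known. From each list every called gene is named where 4 or fewer passed, otherwise the 3 smallest p in each direction; likeness genes are the 5 nearest to TXNIP and 2 nearest to each other member. Floors cover counting error only. Alternatives used DESeq2 1.42.0, limma 3.58.1 (voom, and log2(TPM + 1) or log2(TPM + 0.1) at a mean TPM of at least 1), other scaling and filters, a replicate block, removed length trends and each library left out. Gene positions are from RefSeq on GRCh38.p14, matched by symbol. The values of 1 called list gene are not reported here.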

Additional observations from a re-analysis of the deposited data

How the results depend on the processing

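The alternatives reuse the same libraries, or all but 1 of them, and the members were named with this comparison known. A kept or lost call of a member thus shows how far it depends on the processing and is no further support. TXNIP and MLXIP kept direction and call in all 17 alternatives (log2 fold changes 1.08 to 1.41 and -1.70 to -1.22), while ARRDC3 kept its direction and lost its call on log2(TPM + 1) (0.47) and log2(TPM + 0.1) (0.49). On these TPM scales 2428 and 2407 genes were called instead of 4697 (higher share 21.2% and 20.1% instead of 46.5%), 13 and 12 pathway genes instead of 32, and 2 members instead of 3, and the likeness genes COPRS (-0.038 and -0.035) and SMYD5 (-0.020 and -0.016) turned. With length and GC trends removed (added after seeing the data) ARRDC1 passed (0.33) and MLX (0.055), RNF10 (0.10) and TPCN2 (0.12; 0.012 with the length trend alone) turned, and NEDD4-type genes lower went from 3 to 5, glucose genes higher from 2 to 4 and ESCRT genes higher from 1 to 2. ARRDC3 kept its call with both trends removed, at 0.50 instead of 0.74. The TPM fits also change the test and the filter, and they apply no scaling between libraries beyond the deposited TPM. The median log2 fold change over all genes was -0.26 and -0.29 there instead of -0.04, so lost calls on these scales are not particular to single genes. Leaving out 1 library gave 3094 (ST replicate 2) to 6640 (DMSO replicate 2) called genes, 3 to 4 called members, ARRDC1 at 0.046 to 0.50 and ARRDC2 at -0.43 to 0.11, with CHST14 at -0.45 to 0.082, TPCN2 at -0.42 to 0.057, COPRS at -0.0051 to 0.45 and SMYD5 at -0.0051 to 0.44. The lower ends of ARRDC2, CHST14 and TPCN2 came without DMSO replicate 2 and the upper ends without DMSO replicate 3. The cause was not tested.

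With the replicate number as a block 4743 genes were called and the member calls stayed at 3, while PRKAB1, VPS26B and TXNRD1 lost theirs (adjusted p 0.063, 0.051 and 0.054). Same-numbered libraries deviated together by 0.039, 0.10 and 0.15 (correlation of deviations from the group means), each library correlated best with its own number, which is a hint from the data and not from the design, and the numbers were not taken to pair the samples. ARRDC4, at 1 count in all, had too few reads to be tested, and a level under the floor given above could not be seen.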
